A study of Homo sapiens with 12 samples.

Results

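The pentose phosphate pathway enzymes were taken by name from 2 RNA-seq gene tables, joined on the gene identifier: 8 of the 60558 genes that the tables share. H6PD, PGLS and PGD belong to the oxidative branch, and RPIA, RPE, TKT, TKTL1 and TALDO1 to the non-oxidative branch. The libraries came from MDA-MB-231, an established human line of triple-negative breast cancer, and the series was made to look for genes controlled by NONO and PKM2. NONO is an RNA- and DNA-binding protein of nuclear paraspeckles, and PKM2 is the pyruvate kinase isoform typical of proliferating cells. The 12 libraries form 4 groups of 3: cells transfected with an siRNA against NONO (NONO_KD), their negative controls (NC), cells transfected with an siRNA against PKM2 (PKM2_KD), and a separate set of NC cells for that experiment. All 4 groups share the parental line, and transient transfection leaves residual target mRNA. The siRNA used for the RNA-seq is not given in the sources used here, nor whether the 3 libraries of a group came from separate cultures, so P values measure the spread between these libraries, which may be technical.

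The oxidative branch turns glucose 6-phosphate into a pentose phosphate and yields NADPH, which cells use for lipid synthesis and for keeping glutathione and thioredoxin reduced. The non-oxidative branch interconverts pentose phosphates with the glycolytic intermediates fructose 6-phosphate and glyceraldehyde 3-phosphate, and its reactions can run in either direction. Ribose 5-phosphate, which lies between the branches, is the precursor of nucleotides, and tumor cells can make it by either route.

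The libraries held between 19861762 and 28455268 estimated counts. The log2 fold change of NONO was -2.57 in the NONO experiment, and that of PKM was -3.32 in the PKM2 experiment. Across the 12 libraries ESR1 reached at most 0.12 TPM, a transcript level scaled for length and depth, and PGR at most 0.41 TPM, ERBB2 lay between 13.7 and 35.2 TPM, and the mesenchymal marker VIM lay between 3291 and 4466 TPM. Among the NC libraries of the NONO experiment replicate 1, and among PKM2_KD replicate 3, stood apart from the other libraries of their groups. For H6PD the values without them are given beside its results. In bulk RNA a change in the mix of cells and a change in RNA per cell cannot be told apart.

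The promoter-side sequences of 4 enzymes are shown because RPIA and H6PD had the largest rise and fall, TKT rose in both experiments, and PGLS fell after PKM2 knockdown. Each run is taken from the 250 bases before a RefSeq start and ends before the first annotated exon base within them. For H6PD longer annotated transcripts begin upstream, so its run lies inside the gene. All are written 5′ to 3′ on the strand of the gene, from RefSeq on GRCh38.p14, where all 8 enzymes had an entry. Capitals mark the motif CCAAT or GGGCGG on either strand. The motifs searched were chosen after the sequences were seen. The run of RPIA lies at chr2:88691423-88691643 (plus strand), TKT at chr3:53256053-53256272 (minus strand), H6PD at chr1:9239597-9239843 (plus strand) and PGLS at chr19:17511399-17511628 (plus strand).
RPIA: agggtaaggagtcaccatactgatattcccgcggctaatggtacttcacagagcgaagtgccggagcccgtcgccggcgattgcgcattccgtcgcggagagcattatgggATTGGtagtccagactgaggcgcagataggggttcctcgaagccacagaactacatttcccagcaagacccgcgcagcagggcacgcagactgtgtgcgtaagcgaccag
TKT: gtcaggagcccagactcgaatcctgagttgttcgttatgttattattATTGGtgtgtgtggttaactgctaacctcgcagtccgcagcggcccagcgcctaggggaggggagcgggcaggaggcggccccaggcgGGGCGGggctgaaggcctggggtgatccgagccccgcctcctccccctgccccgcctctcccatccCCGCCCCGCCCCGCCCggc
H6PD: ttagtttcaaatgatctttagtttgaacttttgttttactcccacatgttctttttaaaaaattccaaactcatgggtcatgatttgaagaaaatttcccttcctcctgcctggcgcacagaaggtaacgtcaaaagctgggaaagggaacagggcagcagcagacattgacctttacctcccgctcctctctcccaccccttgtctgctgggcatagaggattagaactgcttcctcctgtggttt
PGLS: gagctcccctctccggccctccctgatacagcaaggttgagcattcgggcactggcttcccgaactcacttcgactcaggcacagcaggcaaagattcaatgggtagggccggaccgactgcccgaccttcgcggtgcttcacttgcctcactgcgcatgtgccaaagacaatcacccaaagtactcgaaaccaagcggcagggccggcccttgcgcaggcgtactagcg
The printed run of RPIA holds 1 CCAAT and 0 GGGCGG, that of TKT holds 1 and 4, and those of H6PD and PGLS hold neither. The full windows of 250 bases before the RefSeq start also take in annotated exon bases that are not printed, 29 in RPIA and 30 in TKT, and with these RPIA holds 1 and 1 and TKT 1 and 5. PGD, which fell after NONO knockdown, holds 2 of each in its window. RPE and TALDO1 rose after PKM2 knockdown. Before the exon bases RPE holds 0 CCAAT and 2 GGGCGG, and TALDO1 holds neither. Their full windows hold 1 and 3 in RPE and 1 and 2 in TALDO1. Among 35116 windows of 250 bases, 32% held CCAAT and 42.6% held GGGCGG. The antioxidant response element TGACNNNGC, held by 10.9% of windows, was also searched. The windows of PGD and RPE hold 1 each and those of the other enzymes 0. The E-box CACGTG, held by 6.34%, was found in no window of the 8 enzymes. These matches describe letters in a window and not sites.

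Of the 7 enzymes with enough counts to be tested, 3 changed after NONO knockdown. RPIA and TKT rose and PGD fell, against 33.4% of all genes called at an adjusted P below 0.05 in that experiment (16.2% higher and 17.2% lower; edgeR's quasi-likelihood test, Benjamini-Hochberg adjusted over all genes). After PKM2 knockdown 6 of the 7 changed, where 68.4% of all genes were called (33.6% higher and 34.7% lower). The 4 non-oxidative enzymes that could be tested rose, and H6PD and PGLS of the oxidative branch fell. The median log2 fold change of all genes was -0.01 in each experiment. A stricter rule asked for more than a 2-fold change and P below 0.05 before adjustment. By it 0 of the 7 passed in either experiment, while 2.95% of all genes passed after NONO knockdown (0.789% higher and 2.16% lower) and 20.8% after PKM2 knockdown (7.05% higher and 13.8% lower).

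**Figure D1:**
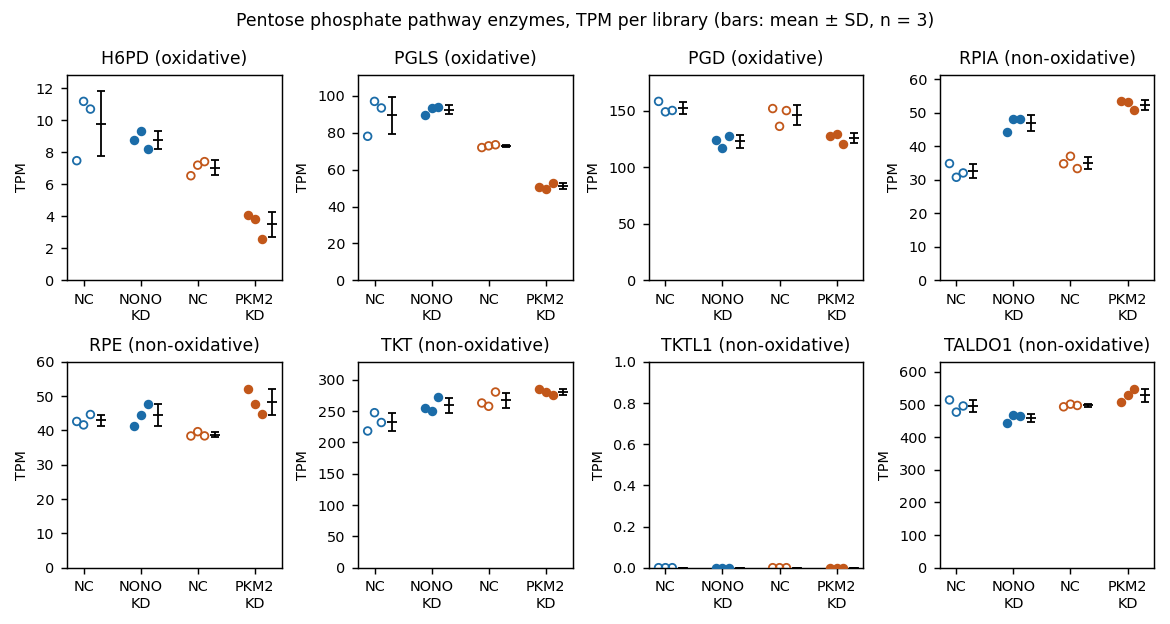
TPM of each pentose phosphate pathway enzyme in every library, by experiment and group, with points for libraries and group means with SD. RPIA was higher in every knockdown library (44.2 to 53.5 TPM) than in every NC library (30.8 to 37.1 TPM), and TKTL1 was at 0 in all 12.

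RPIA, ribose 5-phosphate isomerase, interconverts ribulose 5-phosphate and ribose 5-phosphate (ENSG00000153574, chr2:88691644-88750935, GRCh38). Its NC libraries in the NONO experiment held 34.9, 30.8 and 32.1 TPM and its NONO_KD libraries 44.2, 48.3 and 48.3 TPM. In the PKM2 experiment the NC libraries held 34.8, 37.1 and 33.4 TPM and the PKM2_KD libraries 53.5, 53.1 and 50.8 TPM. The groups did not overlap in either experiment, as holds for 14.5% and 26.5% of all genes in the direction of higher TPM. The mean rose from 32.6 ± 2.10 to 46.9 ± 2.34 TPM (SD, n = 3) after NONO knockdown, a log2 fold change on counts of 0.59 (SE 0.0666, adjusted P = 7.04e-05, edgeR). After PKM2 knockdown it rose from 35.1 ± 1.86 to 52.4 ± 1.48 TPM, a log2 fold change of 0.70 (SE 0.0557, adjusted P = 3.99e-07). These are 1.5-fold and 1.63-fold, the largest rises among the 7 enzymes.

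TKT, transketolase, moves 2-carbon units between sugar phosphates (ENSG00000163931, chr3:53224707-53256052, minus strand). It held 218, 247 and 232 TPM in the NC libraries and 255, 250 and 273 TPM in the NONO_KD libraries. The NONO_KD libraries all lay above the NC libraries, as holds for 14.5% of genes. In the PKM2 experiment it held 263, 258 and 280 TPM in NC and 286, 280 and 275 TPM in PKM2_KD, and the groups overlapped on the TPM scale. On counts TKT rose by 0.25 after NONO knockdown (log2 fold change, SE 0.0387, adjusted P = 5.66e-04, edgeR) and by 0.26 after PKM2 knockdown (SE 0.0462, adjusted P = 3.55e-04). Neither rise was called when log2(TPM + 1) was tested with limma. There the difference was 0.16 (adjusted P = 0.193) after NONO knockdown and 0.07 (adjusted P = 0.342) after PKM2 knockdown. Once the dependence of the fold changes on GC content and on length was subtracted, the value after PKM2 knockdown was 0.43. That setting took the length of the longest annotated transcript, 7286 bases for TKT, whereas the deposited gene length is 2075 bases. With the trend over the deposited length alone taken out, the value was 0.24.

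TKTL1, a transketolase-like paralog on the X chromosome (ENSG00000007350, chrX:154295671-154330350), had 0 counts in all 12 libraries. A count of 0 allows up to 3 counts, which is between 0.0354% and 0.0435% of the TKT count in the libraries of the NONO experiment and between 0.0300% and 0.0383% in those of the PKM2 experiment. This limit covers counting error only. TKTL1 could therefore not be tested, and TKT made up the whole measured transketolase mRNA of the pair.

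TALDO1, transaldolase, moves 3-carbon units (ENSG00000177156, chr11:747329-765024), and was the most abundant of the 8 in every group. It held 514, 477 and 496 TPM in NC and 444, 467 and 465 TPM in NONO_KD, with all NONO_KD values below all NC values, as holds for 24.6% of genes. The log2 fold change on counts was -0.05 and did not pass the test (SE 0.0453, adjusted P = 0.440, edgeR). In the PKM2 experiment it held 493, 501 and 497 TPM in NC and 509, 528 and 549 TPM in PKM2_KD. On counts it rose by 0.21 (SE 0.0564, adjusted P = 6.66e-03), but limma on log2(TPM + 1) gave 0.09 (adjusted P = 0.227).

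RPE, ribulose phosphate 3-epimerase, interconverts ribulose 5-phosphate and xylulose 5-phosphate (ENSG00000197713, chr2:210002565-210022259). Its NC libraries held 42.6, 41.6 and 44.7 TPM and its NONO_KD libraries 41.4, 44.5 and 47.8 TPM, with a log2 fold change of 0.03 that did not pass the test (adjusted P = 0.673, edgeR). In the PKM2 experiment the NC libraries held 38.4, 39.7 and 38.4 TPM and the PKM2_KD libraries 52.2, 47.8 and 44.9 TPM. These did not overlap, as holds for 26.5% of genes in the direction of higher TPM. RPE rose there by 0.32 (log2 fold change, SE 0.0504, adjusted P = 1.18e-04). RPE has the lowest GC content of the 7 tested enzymes (36.6%), and with the GC and length trend taken out its value was 0.17. Its exons overlap those of KANSL1L on the opposite strand over 837 bases, and KANSL1L rose by 0.50 (log2 fold change) in the PKM2 experiment (adjusted P = 2.03e-03). Whether the counting used strand is not given in the sources used here, and the part of these reads in the RPE value was not tested.

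H6PD, the dehydrogenase of the endoplasmic reticulum, supplies NADPH within that compartment and is the least abundant of the enzymes detected (ENSG00000049239, chr1:9234775-9271337). The sequence printed for it lies inside this interval, since longer annotated transcripts begin upstream. In the PKM2 experiment it held 6.53, 7.19 and 7.41 TPM in NC and 4.06, 3.83 and 2.58 TPM in PKM2_KD. The mean fell from 7.04 ± 0.458 to 3.49 ± 0.796 TPM, with a log2 fold change on counts of -0.89 (SE 0.117, adjusted P = 3.10e-05, edgeR), the largest change of any enzyme. It was -0.73 without PKM2_KD replicate 3, which held the lowest value, and -0.65 with the GC and length trend taken out. In the NONO experiment H6PD held 7.47, 11.2 and 10.7 TPM in NC and 8.76, 9.30 and 8.21 TPM in NONO_KD. The log2 fold change was -0.11 and did not pass the test (adjusted P = 0.523). NC replicate 1 held the lowest of these 6 values, and without it H6PD was called at -0.25 (adjusted P = 1.05e-03).

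PGLS, 6-phosphogluconolactonase, opens the lactone ring formed by the dehydrogenase step (ENSG00000130313, chr19:17511629-17521288). It fell after PKM2 knockdown, from 71.9, 72.9 and 73.5 TPM in NC to 50.8, 49.5 and 52.7 TPM in PKM2_KD. The groups did not overlap, as holds for 38.9% of genes in the direction of lower TPM. The log2 fold change was -0.40 (SE 0.0655, adjusted P = 1.65e-04, edgeR), and -0.29 with the GC and length trend taken out. In the NONO experiment the NC libraries held 78.1, 97.0 and 93.4 TPM and the NONO_KD libraries 89.7, 93.5 and 94.0 TPM. This was a log2 fold change of 0.12, which did not pass the test (adjusted P = 0.234).

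PGD, 6-phosphogluconate dehydrogenase, makes ribulose 5-phosphate and the pathway's later NADPH (ENSG00000142657, chr1:10398592-10420144). It held 158, 149 and 150 TPM in NC and 124, 117 and 128 TPM in NONO_KD. Every NONO_KD library lay below every NC library, as holds for 24.6% of genes. PGD fell after NONO knockdown, with a log2 fold change of -0.26 (SE 0.0425, adjusted P = 7.39e-04, edgeR). In the PKM2 experiment it held 152, 136 and 150 TPM in NC and 127, 129 and 121 TPM in PKM2_KD. These TPM values did not overlap, as holds for 38.9% of genes in the direction of lower TPM. On counts the log2 fold change was -0.05 and did not pass the test (SE 0.0536, adjusted P = 0.399, edgeR). Limma on log2(TPM + 1) called PGD at -0.21 (adjusted P = 0.0398). Limma on log2(TPM + 0.1) also called it, at -0.21 (adjusted P = 0.0432). Limma on log2(TPM + 1) without the filter on low values did not (adjusted P = 0.0516), nor did DESeq2 or other scaling factors on counts. The cause of the difference between counts and TPM was not tested.

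**Figure D2:**
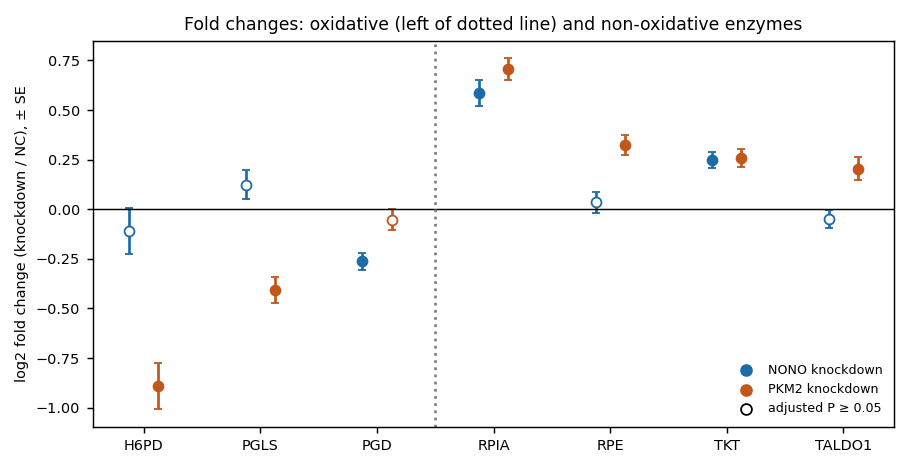
Log2 fold change (vertical axis, knockdown against NC, edgeR on counts) of the 7 tested enzymes, with bars of ± SE, blue for NONO and orange for PKM2 knockdown, and open points where the adjusted P was not below 0.05. RPIA and TKT lie above 0 in both experiments, while H6PD and PGLS lie lowest after PKM2 knockdown (-0.89 and -0.40).

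In both experiments the NC libraries put the enzymes in 1 order of TPM, TALDO1, TKT, PGD, PGLS, RPE, RPIA and H6PD, and the ranges of neighbours did not overlap. Levels are compared per transcript length, which TPM accounts for. In the knockdown groups the means of RPIA and RPE changed places, although their libraries overlapped. RPIA reached 46.9 TPM against 44.5 TPM for RPE after NONO knockdown, and 52.4 against 48.3 TPM after PKM2 knockdown. After PKM2 knockdown RPIA also exceeded PGLS, which held 51.0 TPM, but the libraries of these groups overlapped (50.8 to 53.5 against 49.5 to 52.7 TPM).

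The oxidative enzymes together supplied 23.1%, 24.4% and 24.0% of the summed TPM of the 8 genes in the NC libraries of the NONO experiment, and 22.1%, 21.3% and 21.6% in NONO_KD. The NC libraries of the PKM2 experiment gave 21.7%, 20.6% and 21.4%, and PKM2_KD gave 16.8%, 16.7% and 16%. The groups did not overlap in either experiment. The oxidative sum went from 252 ± 7.04 to 224 ± 5.26 TPM after NONO knockdown and from 226 ± 8.33 to 180.3 ± 3.89 TPM after PKM2 knockdown (SD, n = 3). The non-oxidative sum went from 804 ± 6.66 to 809 ± 25 TPM and from 838 ± 10.4 to 909.7 ± 9.89 TPM. No test was made on these sums, since the enzymes were chosen with their values known. The log2 ratio of oxidative to non-oxidative TPM changed by -0.18 and -0.44. With each enzyme weighted equally the changes were -0.25 and -0.73, and the change after NONO knockdown was -0.30 on CPM. PGD and TALDO1 dominate the sums, so the TPM change after NONO knockdown was -0.35 without TALDO1 and -0.11 without TKT.

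The difference between the knockdowns was tested as an interaction over the 12 libraries, which called 5 of the 7 enzymes, where 53.1% of all genes were called. H6PD and PGLS changed further downward after PKM2 than after NONO knockdown, by -0.80 (SE 0.185, adjusted P = 1.53e-03, edgeR) and -0.54 (SE 0.103, adjusted P = 2.49e-04). Without NC replicate 1 of the NONO experiment these differences were -0.63 and -0.45, and without PKM2_KD replicate 3 they were -0.64 and -0.60. RPE and TALDO1 differed in the other direction, by 0.28 (SE 0.0730, adjusted P = 4.03e-03) and 0.24 (SE 0.0778, adjusted P = 0.0144), as did PGD by 0.20 (SE 0.0710, adjusted P = 0.0278). With limma on log2(TPM + 1) the differences of PGD (0.10, adjusted P = 0.394) and RPE (0.26, adjusted P = 0.0587) were not called. The difference was 0.11 for RPIA (SE 0.0880, adjusted P = 0.332) and -0.00326 for TKT (SE 0.0600, adjusted P = 0.976), and neither passed the test. RPIA and TKT, higher in both experiments, are thus 2 of the 7, where 9.34% of the genes tested in both were higher in both and 9.93% lower in both. The experiments share no libraries.

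Genes next to the pathway were read as lists beside it. Of the 9 neighbours by reaction, 6 could be tested. PGM2, which acts on phosphopentoses, fell after NONO knockdown (-0.45) and rose after PKM2 knockdown (0.30), and RBKS, the ribokinase, showed -0.55 without passing the test after PKM2 knockdown (adjusted P = 0.0970, edgeR). In all, 1 neighbour fell and 0 rose after NONO knockdown, and 2 rose and 0 fell after PKM2 knockdown, with medians of 0.03 and -0.07. These are 1 and 2 of 6 called, against 33.4% and 68.4% of all genes. Of 5 genes for synthesis of phosphoribosyl pyrophosphate (PRPP), the activated form of ribose 5-phosphate, 4 were tested: 1 fell after NONO knockdown (PRPSAP2, -0.39), and 1 rose and 2 fell after PKM2 knockdown (PRPS2, -0.48, the most), with medians of 0.05 and -0.06 and the same shares of all genes called.

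The list of other NADPH sources also counts the NAD kinases NADK and NADK2, which are not themselves routes to NADPH. It held 2 genes higher and 3 lower of 8 tested after NONO knockdown. After PKM2 knockdown 1 was higher and 7 were lower, and the medians were -0.04 and -0.66. That is 5 and 8 of 8 called, against 33.4% and 68.4% of all genes, of which 17.2% and 34.7% were lower. NADK and NADK2 were not called after NONO knockdown, and both fell after PKM2 knockdown (-0.37 and -0.23). IDH1 and IDH2, the cytosolic and mitochondrial isocitrate dehydrogenases, fell in both experiments, with log2 fold changes of -0.37 and -0.52 after NONO knockdown and -0.88 and -1.48 after PKM2 knockdown. NNT, the mitochondrial transhydrogenase, fell as well (-0.16 and -1.54). ME1, the cytosolic malic enzyme, rose in both (0.29 and 0.51), and MTHFD1, of folate metabolism, rose after NONO knockdown (0.16) and fell after PKM2 knockdown (-0.45). All 4 enzymes that spend NADPH on reducing thioredoxin or glutathione fell after NONO knockdown, where 17.2% of all genes were lower, with a median of -0.41. TXNRD3 was lowest on counts at -0.61, while its TPM were 7.93 ± 0.600 in NC and 7.42 ± 1.91 in NONO_KD. After PKM2 knockdown 2 of these 4 fell, TXNRD1 (-0.97) and GSR (-0.20), with a median of -0.08, where 34.7% of all genes were lower. TXNRD1 and GSR had log2 fold changes of -0.28 and -0.35 after NONO knockdown.

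The gene whose pattern over the 12 libraries was most like that of PGD was IDI1 (Pearson r = 0.962), followed by TMEM104 (0.959) and PEBP1 (0.948). For TKT they were GRN (0.992), P4HB (0.991) and HDGFL2 (0.987). These come from 14525 genes, on log2 CPM centred on each experiment's NC mean, and libraries of 1 group share their treatment, so the values are a description.

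The settings that decide these calls are set side by side for each enzyme. RPIA stayed above 0 in every setting tried in both experiments, and its value after PKM2 knockdown was 0.60 with the GC and length trend taken out.

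**Figure D3:**
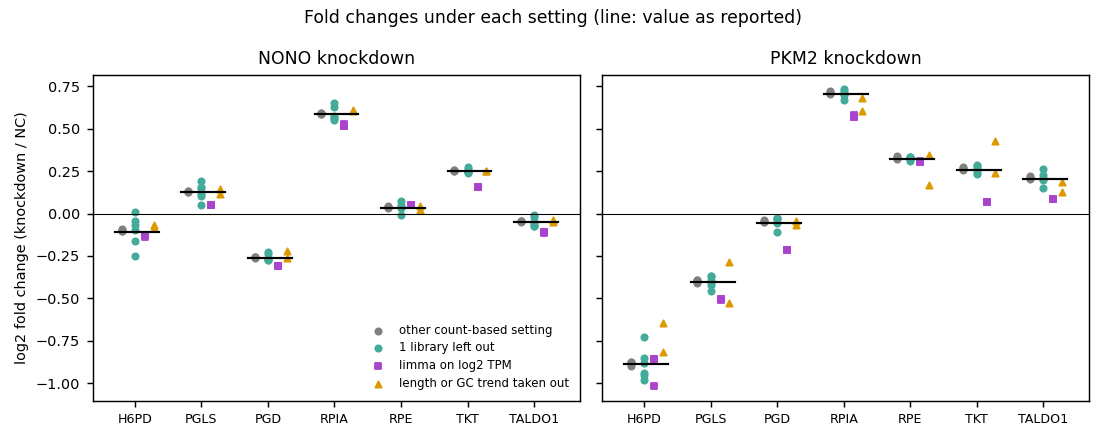
Log2 fold change of each tested enzyme under each alternative setting, with a line at the reported value, for NONO (left) and PKM2 knockdown (right). The points of RPIA stay above 0 in both, and those of H6PD and PGLS stay below 0 after PKM2 knockdown.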

How the data were processed

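Poly(A)-selected RNA was read as pairs of 150 bases from 12 libraries in 2 experiments. Per the submitters' processing notes, fastp, HISAT2, StringTie, RSEM, DESeq2, edgeR, limma and hg19 were named, with no role or order. For each gene, the deposited tables give estimated counts (with fractions) and TPM in every library, both made by the authors. The authors' deposited fold change (ratio), its log2 value, the p-value columns and the authors' mean TPM were not used. Column names are identical in the tables, so the table set the experiment, and the targeted gene was checked. Per-library columns left unused: 0. Group and replicate came from the sample labels. The pathway enzymes and the linked lists were chosen with earlier results of these data known.

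Counts were rounded and tested for each experiment with edgeR 4.0.16 (R 4.3.3), with TMM factors and filterByExpr at its defaults, without a replicate block. A gene was called at a Benjamini-Hochberg adjusted P below 0.05 over all genes tested, 14832 and 15524. SEs were taken from the F statistic. Differences between knockdowns used 1 edgeR fit over the 12 libraries. Alternatives used DESeq2 1.42.0, limma 3.58.1 on log2(TPM + 1) or log2(TPM + 0.1) with a mean TPM of at least 1, other factors, no filter and each library left out. The removal of GC content and length trends in 20 bins was added after the data were seen. It took both from the longest GENCODE 29 transcript of each gene. A trend over the deposited gene length alone was also taken out. The scripts were tested on simulated data. All 8 enzymes are named, and from each linked list the genes called in both experiments or with the largest absolute log2 fold change in either. Coordinates are GENCODE 29 on GRCh38, which may not be the authors' annotation and serve for location only. Near-identical copies (8 pseudogenes) held at most 2 counts in a library, while PGLS and RPE had fractional counts in all 12 libraries, so their values are less certain. H6PD also had fractional counts in 3 libraries of the PKM2 experiment. Depth ranged from 19861762 to 28455268 counts. The limit given for TKTL1 covers counting error only, while SEs include the spread between libraries.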

Additional observations from a re-analysis of the deposited data

Results flagged for a closer look

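Enzymes whose log2 fold change differed between the knockdowns by the interaction test (edgeR's quasi-likelihood test, Benjamini-Hochberg adjusted over all genes) are given here as PKM2 knockdown minus NONO knockdown. H6PD differed by -0.80 (-0.89 against -0.11) and PGLS by -0.54 (-0.40 against 0.12). PGD differed by 0.20 (-0.05 against -0.26), RPE by 0.28 (0.32 against 0.03) and TALDO1 by 0.24 (0.21 against -0.05). With limma on log2(TPM + 1) the differences of PGD (0.10, adjusted P = 0.394) and RPE (0.26, adjusted P = 0.0587) were not called. The PGD difference also lost its call without NONO_KD replicate 2 (0.17, adjusted P = 0.0827), without NC replicate 2 of the PKM2 experiment (0.15, adjusted P = 0.0759), without PKM2_KD replicate 2 (0.19, adjusted P = 0.0582) and without the filter on low counts (0.18, adjusted P = 0.0723). The 2 experiments are separate tables with their own NC groups, so experiment and target cannot be told apart beyond those groups.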

How the results depend on the processing

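Per enzyme, 274 of 301 alternative values with a test kept direction and side of the threshold. The 28 values with a GC or length trend taken out have no test and kept their direction, and 8 of them shifted by more than the SD between libraries. The sign turned for H6PD after NONO knockdown without NC replicate 2 (0.00779; -0.253 to 0.00779 over the left-out libraries), for RPE after NONO knockdown without NONO_KD replicate 3 (-0.00826; -0.00826 to 0.0751), and for the TKT difference with DESeq2 (0.0180), with relative log expression factors (0.0160) and in 5 settings with 1 library left out (-0.0240 to 0.0327 over all left-out libraries), none of them called; the causes were not tested. With 1 library left out, the number of enzymes called was 3 to 4 after NONO knockdown, 6 in each case after PKM2 knockdown and 4 to 5 for the difference. By the 2-fold rule it was 0 and 0. With limma on log2(TPM + 1) it was 2 after NONO knockdown, 5 after PKM2 knockdown (2 higher and 3 lower) and 3 for the difference. Limma on log2(TPM + 0.1) also gave 2 and 5, and limma on log2(TPM + 1) without the filter on low values gave 2 and 4. The log2 branch ratio changed by -0.25 after NONO knockdown and -0.73 after PKM2 knockdown with each enzyme weighted equally, and after NONO knockdown by -0.11 without TKT, -0.35 without TALDO1 and -0.30 on CPM. With 1 library left out it ranged from -0.206 to -0.156 and from -0.471 to -0.416. Limma on log2(TPM + 1) called 2244 genes after NONO knockdown, 30.8% of them higher, against 4954 with 48.4% higher in edgeR. The median log2 fold change of all genes was -0.10 on log2(TPM + 0.1) after PKM2 knockdown, and relative to it PGD lay at -0.11, TKT at 0.18 and TALDO1 at 0.19. Same-numbered libraries correlated between -0.10 and 0.04, so no pairing by number was seen. With 3 libraries in a group this cannot exclude a shared culture or day. With a replicate block, 3, 6 and 5 enzymes were called and all-gene calls were 4351 and 10525. Depth limits TKTL1 only, at 0 counts.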

Other observations

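Of 9 genes tested that use PRPP or follow it in nucleotide synthesis, 5 were higher and 1 lower after NONO knockdown, and 5 were higher and 3 lower after PKM2 knockdown, with medians of 0.15 and 0.31. That is 6 and 8 of 9 called, against 33.4% and 68.4% of all genes. APRT, the salvage enzyme for adenine, rose in both experiments (log2 fold changes of 0.64 and 0.45), while HPRT1, the salvage enzyme for hypoxanthine and guanine, fell in both (-0.65 and -0.20). UMPS, of pyrimidine synthesis, rose in both on counts (0.33 and 0.53), as did ADSL (0.23 and 0.42) and GART (0.15 and 0.31) of purine synthesis. The TPM of UMPS were 41.1 ± 15.1 in NC and 52.2 ± 18.4 in NONO_KD, a spread wider than the difference. PFAS rose after NONO knockdown (0.20) and fell after PKM2 knockdown (-0.30), and ATIC showed the largest value after PKM2 knockdown (0.54).

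Of 8 genes where glycolysis meets the non-oxidative branch, 1 was higher and 1 lower after NONO knockdown, and 2 were higher and 4 lower after PKM2 knockdown, with medians of 0.01 and -0.02. That is 2 and 6 of 8 called, against 33.4% and 68.4% of all genes. PFKL rose after NONO knockdown (0.78), PFKP fell in both (-0.18 and -0.65), and ALDOC fell the most after PKM2 knockdown (-2.52, from 19.3 to 3.08 TPM).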
